A study of Homo sapiens with 5 samples.

Results

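The genes described here are 10 genes of protein folding and quality control in the endoplasmic reticulum (ER): HSPA5, HSP90B1, CALR, PDIA4, DNAJB9, DNAJC3, SEL1L, CRELD2, XBP1 and EDEM1. They were taken by name from the platform's probe-to-gene table, which assigned 26 of the 54675 probe sets of the array to them. A probe set is a group of short oligonucleotides that together read 1 transcript region. Of the 26, 2 HSP90B1 probe sets also carry the name of a microRNA gene and were not used, which left 24 probe sets, with at least 1 for each of the 10 genes. Of these, 22 passed the filter on low signal (at least 2 arrays at the 40th percentile of all values, 6.03 log2 units) and were tested; the dimmest SEL1L probe set and the dimmer of the XBP1 probe sets did not pass.

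The study profiled total RNA from 3 human renal cell carcinoma lines by Affymetrix array, in order to find expression differences that accompany growing metastatic activity. SN12C, the parental line, is described as non-metastatic and had 2 arrays, labelled biological replicates. LM1, the lung-metastatic line of generation 1, had 1 array, and LM2, the lung-metastatic line of generation 2, had 2 arrays, again labelled biological replicates. No genotype, treatment, culture time or host is given in the labels for any line. Values are deposited log2 signals made with RMA, a method that corrects background and summarises the oligonucleotides of a probe set. A difference of 1 log2 unit is a 2-fold change in signal. Nothing says that replicates came from separate cultures beyond the word biological. Tests therefore measure the spread between the replicate arrays of SN12C and LM2, to which LM1 adds none.

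Proteins that enter the ER fold with the help of chaperones, of lectins that read their sugar chains, and of enzymes that form disulfide bonds. Chains that fail to fold are pulled back to the cytosol and degraded, a process called ER-associated degradation (ERAD). When unfolded protein accumulates, the sensors IRE1, PERK and ATF6 raise the transcription of chaperone and degradation genes, which is the unfolded protein response; IRE1 does so by splicing XBP1 mRNA, which then encodes an active transcription factor. Secretory epithelial cells and carcinoma cells under nutrient or oxygen stress are well known to use this response.

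The factors ATF6 and spliced XBP1 act through the ER stress element, written as CCAAT, 9 bases and CCACG. It was searched on both strands of RefSeq promoter windows (build GRCh38.p14, 250 bases before to 50 bases after each gene start), which were found for all 10 genes, PDIA4 and XBP1 with 2 windows each. Full elements lay in the windows of 5 of the 10 genes, HSPA5, HSP90B1 (2 elements), CALR, CRELD2 and XBP1. By window this was 5 of the 12 member windows, against 0.0769% of all 35116 windows. The difference between these shares was not tested. The 6 elements are shown because they are the sequence feature these 5 genes share. Each is written 5′ to 3′ on the strand of its gene, with the bases of CCAAT and CCACG, or of their reverse complements ATTGG and CGTGG, in capitals.
HSPA5, chr9:125241391-125241409, minus strand: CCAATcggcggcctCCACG
HSP90B1, chr12:103930216-103930234, plus strand: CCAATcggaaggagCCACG
HSP90B1, chr12:103930321-103930339, plus strand: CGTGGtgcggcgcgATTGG
CALR, chr19:12938384-12938402, plus strand: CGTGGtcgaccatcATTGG
CRELD2, chr22:49918554-49918572, plus strand: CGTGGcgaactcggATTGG
XBP1, chr22:28800603-28800621, minus strand: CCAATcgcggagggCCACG

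They began between 52 bases (XBP1) and 225 bases (CALR) before the gene start. In HSPA5, HSP90B1 (the distal element) and XBP1 the element ran in the direction of the gene, and in CALR, CRELD2 and the proximal HSP90B1 element it ran against it. The variant called ERSE-II (ATTGG, 1 base, CCACG) had 0 matches among the members against 0.0541% of all windows, and the core of the unfolded protein response element, TGACGTG, had 0 against 1.97%. CCAAT alone, which is part of the full element, occurred in windows of all 10 genes and in 34.6% of all windows. A match is a stretch of letters, not a measured binding site.

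**Figure D1:**
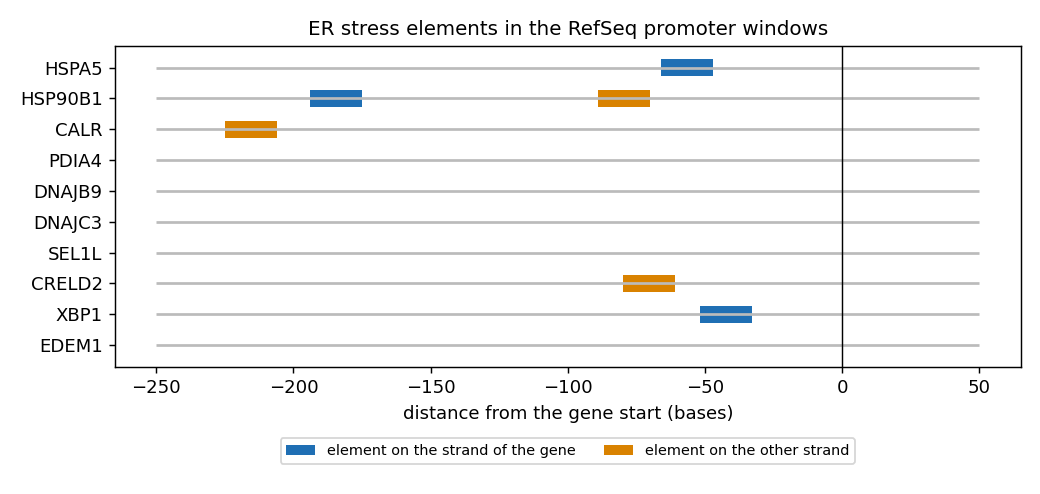
Positions of full ER stress elements in the promoter windows of the 10 genes, as distance in bases from the gene start (0); blue boxes lie on the strand of the gene and orange boxes on the other strand. The windows of HSPA5, HSP90B1, CALR, CRELD2 and XBP1 hold 6 elements; for XBP1 and PDIA4, which have 2 windows, both were searched and drawn on 1 line.

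The 250 bases before the start of HSPA5, HSP90B1 and CRELD2 are printed to show the elements in their promoters, and those of SEL1L, which of the 10 genes differed most between LM2 and SN12C, as a promoter with no full element. Capitals again mark the bases of the element.
HSPA5, chr9:125241344-125241593, minus strand: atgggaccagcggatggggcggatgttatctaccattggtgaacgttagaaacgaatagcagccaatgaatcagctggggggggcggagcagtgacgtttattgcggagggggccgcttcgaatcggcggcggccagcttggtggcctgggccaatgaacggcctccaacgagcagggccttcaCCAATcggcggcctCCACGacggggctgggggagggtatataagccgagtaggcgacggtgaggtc
HSP90B1, chr12:103930160-103930409, plus strand: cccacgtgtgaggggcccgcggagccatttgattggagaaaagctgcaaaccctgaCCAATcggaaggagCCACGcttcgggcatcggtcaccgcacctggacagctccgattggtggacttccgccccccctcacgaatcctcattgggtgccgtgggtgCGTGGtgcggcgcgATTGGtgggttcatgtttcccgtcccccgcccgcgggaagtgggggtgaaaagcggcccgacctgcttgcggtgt
CRELD2, chr22:49918384-49918633, plus strand: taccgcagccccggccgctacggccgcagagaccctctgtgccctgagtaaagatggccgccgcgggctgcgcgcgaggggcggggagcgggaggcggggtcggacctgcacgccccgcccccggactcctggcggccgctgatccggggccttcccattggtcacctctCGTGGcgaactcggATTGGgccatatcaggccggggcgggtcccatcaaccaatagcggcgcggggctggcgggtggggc
SEL1L, chr14:81533854-81534103, minus strand: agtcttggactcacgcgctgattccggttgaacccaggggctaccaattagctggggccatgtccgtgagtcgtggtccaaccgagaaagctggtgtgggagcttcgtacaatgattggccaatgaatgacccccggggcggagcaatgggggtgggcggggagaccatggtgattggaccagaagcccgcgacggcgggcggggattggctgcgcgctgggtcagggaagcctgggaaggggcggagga

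Over the whole table, 25 genes had a window with a full element, and 16 of them were tested. Among the 25 were 3 genes of the pathway lists below, CANX, ERO1B and PDIA6. In LM2 the 16 had a median difference from SN12C of 0.02 log2 units, 9 higher and 7 lower, HSP90B1 being counted as higher at a difference that rounds to 0.00.

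Array medians ran from 6.51 to 6.57 log2 units. The 2 LM2 arrays resembled each other more closely than the 2 SN12C arrays: the median absolute difference between replicates, over 33376 probe sets tested, was 0.07 in LM2 and 0.28 in SN12C. For the 22 member probe sets it was 0.08 and 0.35. On the LM1 array the control probe sets at the 3′ end exceeded those at the 5′ end by 3.43 log2 units for beta-actin and 2.09 for GAPDH, against at most 0.47 on the other 4 arrays, a sign of RNA quality. Of the markers of renal carcinoma cells, KRT8, KRT18 and VIM read between 12.46 and 14.72 and PAX8 between 9.19 and 9.82 on all arrays, while PAX2 was near the filter value, at 6.34 to 6.46. Plasma cells, which are rich in ER chaperones, have the defining markers JCHAIN and TNFRSF17; these read at most 3.74 and 5.12, below the filter value on all 5 arrays, and MZB1 read 6.79 to 6.85. The other marker of that list, SDC1, which epithelial cells also carry, read 10.06 and 11.03 in SN12C, 11.38 in LM1 and 11.03 and 10.93 in LM2.

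LM2, the second metastatic generation, was first set against its parental line. In LM2, 6 of the 10 genes, CALR, PDIA4, DNAJC3, SEL1L, CRELD2 and EDEM1, read higher on both LM2 arrays than on both SN12C arrays with every probe set tested, 14 probe sets in all. HSPA5 read lower on both LM2 arrays with both of its probe sets, and HSP90B1, DNAJB9 and XBP1 overlapped. Of all probe sets tested, 23.7% were higher in LM2 without overlap and 13.0% lower, against 14 and 2 of the 22 members (63.6% and 9.09%). Probe sets of 1 gene read the same transcripts and are not independent. No difference passed the test: limma, a linear model fitted across all 33376 probe sets with Benjamini-Hochberg adjustment, called 0 members and 0.0% of all probe sets at an adjusted p of 0.05, while 3178 had an unadjusted p below 0.05. Without SN12C replicate 2 the spread of the fit comes from the LM2 pair alone. That pair held equal values in 4959 of the probe sets tested, the brightest DNAJB9 probe set among them. Calls from that fit are therefore not used for single genes. Without replicate 2 the brightest DNAJB9 probe set stood at 0.17, and without replicate 1 at -0.11. With 2 arrays against 2, an exact two-sided permutation test of 1 probe set cannot go below 0.333. In bulk RNA a change in the share of cells that use a gene and a change in RNA per cell cannot be told apart.

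The signal range also differed between arrays, so the values were normalized again by quantiles. The median of all probe sets tested moved from 0.03 to -0.01, and that of the 22 members from 0.30 to 0.14. By brightest probe set, the median of the 10 genes moved from 0.12 (8 higher, 2 lower) to -0.03 (4 higher, 6 lower). Without overlap, 8 member probe sets were then higher, against 24.1% of all probe sets, and 4 lower, against 23.4%. The 8 were the 4 DNAJC3, the 3 SEL1L and the CRELD2 probe sets. The 4 lower were the dimmer HSPA5 probe set, the brighter HSP90B1 probe set and all DNAJB9 probe sets but the dimmest. The brighter HSPA5 probe set then overlapped. The brightest probe sets of CALR (-0.05), PDIA4 (-0.02), DNAJB9 (-0.09) and HSP90B1 (-0.12) had the opposite sign after quantile normalization. This limit holds for every difference of LM2 from SN12C given below by the brightest probe set of these 4 genes. Their other probe sets tested kept their sign. These stood at 0.11 and 0.24 for CALR, 0.16 for PDIA4 and 0.42 for HSP90B1, all with overlapping arrays, and at -0.13 and -0.09 for DNAJB9.

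**Figure D2:**
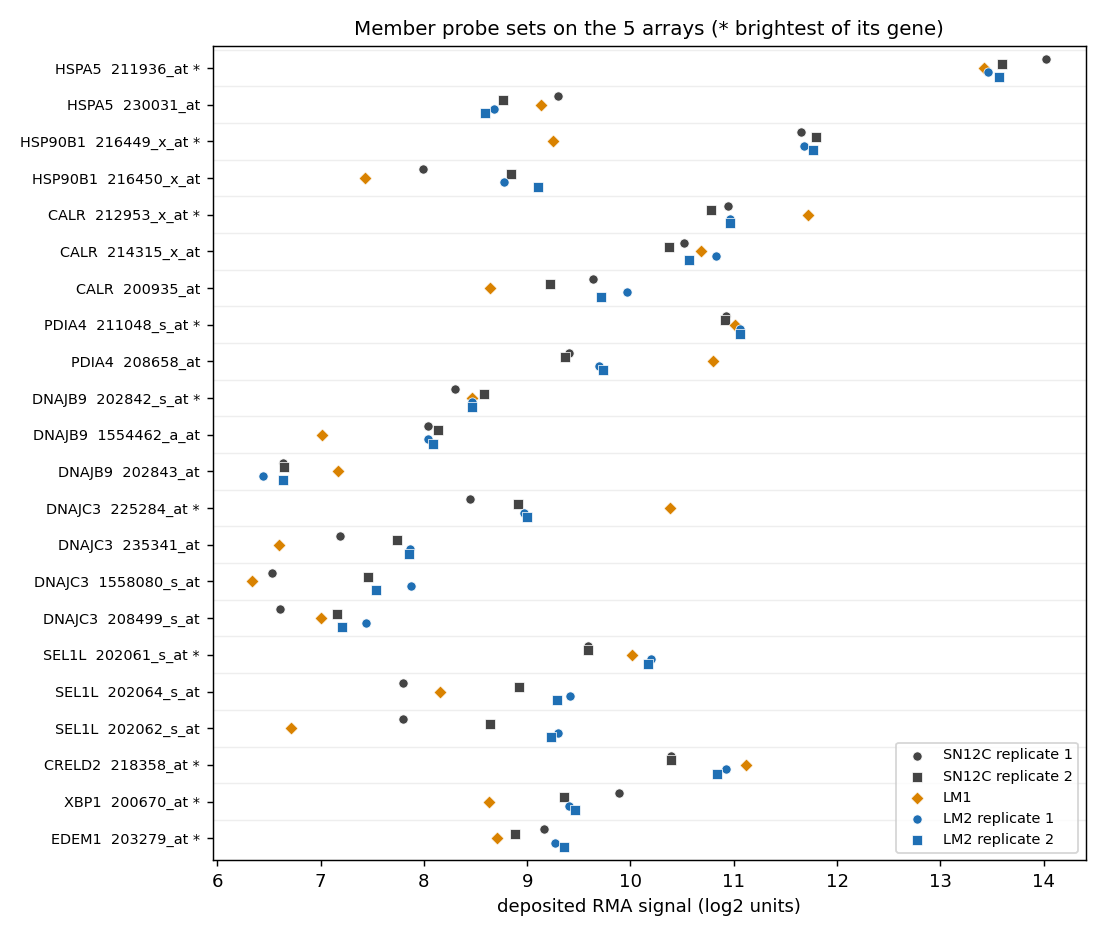
Deposited signal in log2 units (x axis) of the 22 member probe sets tested (y axis) on the 5 arrays; each symbol is 1 array, grey for SN12C, orange for LM1 and blue for LM2, and a star marks the brightest probe set of a gene. The blue symbols lie to the right of both grey symbols for SEL1L, DNAJC3 and CRELD2, and the LM1 symbol lies far from the other 4 for the brighter HSP90B1 probe set, at 9.25.

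Among the chaperones, HSPA5 encodes BiP, the ER member of the HSP70 family, which binds unfolded chains and holds the stress sensors inactive. Its brighter probe set read 14.02 and 13.60 in SN12C and 13.46 and 13.57 in LM2. SN12C replicate 1 stood apart on the high side, and SN12C replicate 2 exceeded the higher LM2 array only slightly. The difference was -0.30 ± 0.18 log2 units (SE; limma adjusted p = 0.679). The dimmer HSPA5 probe set read 9.30 and 8.77 in SN12C and 8.68 and 8.59 in LM2, a difference of -0.40 ± 0.22 (limma adjusted p = 0.679). The SN12C arrays were further apart, by 0.42 and 0.53 in these probe sets, than the lines. Quantile normalization gave differences of -0.28 and -0.56, and only the dimmer probe set stayed without overlap.

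HSP90B1 encodes GRP94, the ER member of the HSP90 family, on which integrins and Toll-like receptors depend. Its brighter probe set read 11.65 and 11.80 in SN12C and 11.68 and 11.77 in LM2, so the LM2 arrays lay between the SN12C arrays. The difference was 0.00 with a 95% confidence interval from the limma fit of -0.29 to 0.30. Quantile normalization moved it to -0.12, lower in LM2 without overlap. The second probe set read 7.99 and 8.84 in SN12C and 8.78 and 9.10 in LM2, with an interval of -0.59 to 1.64. Both are of the _x_at type, whose oligonucleotides can bind related transcripts, so their values are uncertain as to the gene.

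CALR encodes calreticulin, a calcium-binding lectin chaperone that retains glycoproteins until they fold. Its probe sets read 10.94 and 10.78, 10.52 and 10.37, and 9.64 and 9.22 in SN12C. In LM2 they read 10.96 and 10.96, 10.83 and 10.57, and 9.97 and 9.71. The differences were 0.10, 0.25 and 0.41 (limma adjusted p between 0.675 and 0.682), and after quantile normalization -0.05, 0.11 and 0.24. The 2 brighter probe sets are of the _x_at type.

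PDIA4 encodes ERp72, a protein disulfide isomerase. Its brighter probe set read 10.92 and 10.91 in SN12C and 11.06 on both LM2 arrays, a difference of 0.14 (limma adjusted p = 0.659) that stood at -0.02 after quantile normalization. The other read 9.40 and 9.37 in SN12C and 9.70 and 9.73 in LM2, a difference of 0.33 ± 0.07 (limma adjusted p = 0.411), or 0.16 after quantile normalization. In both the replicates of a line were nearly equal.

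Of the partners of BiP, DNAJB9 encodes ERdj4, a J-domain partner of BiP that also restrains IRE1. Its brightest probe set read 8.30 and 8.58 in SN12C and 8.47 on both LM2 arrays, with a difference of 0.03 and a 95% interval of -0.37 to 0.43. The other DNAJB9 probe sets had differences of -0.03 and -0.10. The SN12C and LM2 arrays overlapped in all 3 as deposited. Once normalized by quantiles, the brightest stood at -0.09 and the next at -0.13, both lower in LM2 without overlap.

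DNAJC3 encodes p58IPK, a BiP co-chaperone and inhibitor of PERK. Its brightest probe set read 8.45 and 8.91 in SN12C and 8.97 and 9.0 in LM2. The second read 7.19 and 7.74 in SN12C and 7.87 and 7.86 in LM2. The other 2 read 6.53 and 7.46, and 6.61 and 7.16, in SN12C against 7.88 and 7.54, and 7.44 and 7.21, in LM2. In each, SN12C replicate 1 was the lowest of these 4 arrays and SN12C replicate 2 stood close below LM2. The differences were 0.31, 0.40, 0.72 and 0.44 (limma adjusted p = 0.679 for each), while SN12C replicate 1 minus replicate 2 was -0.45, -0.55, -0.93 and -0.55.

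CRELD2 encodes an ER-resident protein with disulfide isomerase activity that is induced by ER stress. Its single probe set read 10.39 on both SN12C arrays and 10.92 and 10.84 in LM2, and the lines were separated by far more than the replicates. The difference was 0.49 ± 0.07 log2 units, a 1.40-fold higher signal (limma adjusted p = 0.352; 95% interval 0.26 to 0.72), and 0.34 after quantile normalization. The width of this interval is borrowed in part from all probe sets.

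Of the degradation genes, SEL1L encodes the adaptor that stabilises the ubiquitin ligase HRD1 in the ER membrane. Its brightest probe set read 9.59 on both SN12C arrays and 10.20 and 10.17 in LM2. The difference was 0.60 ± 0.07, a 1.51-fold higher signal (limma adjusted p = 0.328; 95% interval 0.39 to 0.80), and 0.43 after quantile normalization. The second probe set read 7.80 and 8.92 in SN12C and 9.41 and 9.29 in LM2, a difference of 0.99 ± 0.45 (limma adjusted p = 0.641). The dimmest one tested read 7.80 and 8.64 in SN12C and 9.30 and 9.23 in LM2, a difference of 1.05 ± 0.34 (limma adjusted p = 0.520). On these 2 probe sets SN12C replicate 1 minus replicate 2 was -1.12 and -0.84, so the size of the difference rests in part on that array. The SEL1L probe set that missed the filter read 5.02 on both SN12C arrays and 4.82 and 4.96 in LM2, near background.

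EDEM1 encodes a lectin that hands mannose-trimmed glycoproteins to degradation. It read 9.16 and 8.88 in SN12C and 9.27 and 9.36 in LM2, a difference of 0.29 ± 0.14 (limma adjusted p = 0.643) that stood at 0.13, with overlapping arrays, after quantile normalization.

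XBP1, the transcription factor of the IRE1 branch, read 9.89 and 9.36 in SN12C and 9.40 and 9.46 in LM2 with its brighter probe set, so the LM2 arrays lay between the SN12C arrays. The difference was -0.19 with a 95% interval of -0.88 to 0.49. Spliced and unspliced XBP1 mRNA were not separated here. The dimmer probe set read 6.02 and 5.63 in SN12C and 5.94 and 5.63 in LM2, all below the filter value.

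**Figure D3:**
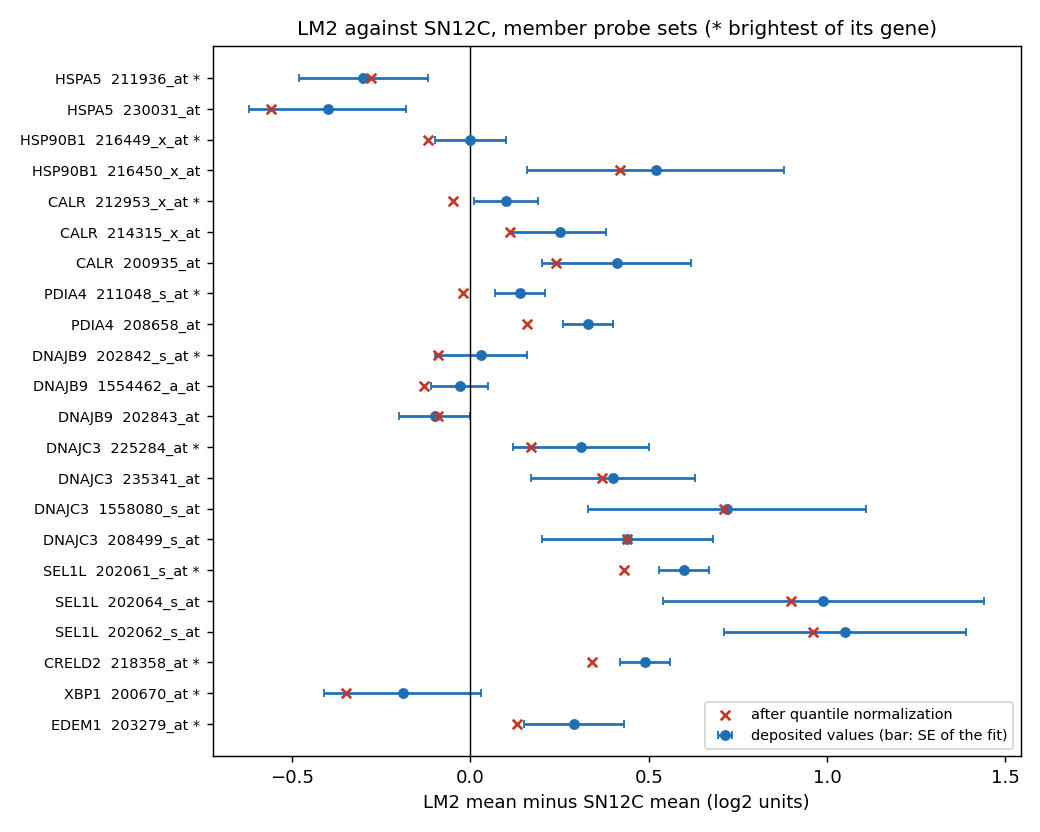
Difference between the LM2 mean and the SN12C mean in log2 units (x axis) for the 22 member probe sets tested; blue points with bars are the deposited values with the SE of the limma fit, and red crosses are the values after quantile normalization. SEL1L (0.60 to 1.05) and DNAJC3 (0.31 to 0.72) lie to the right of 0 in all their probe sets under both, and HSPA5 (-0.40 and -0.30) to the left.

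Against each SN12C array alone, LM2 was higher in 18 of the 22 member probe sets against replicate 1 and in 16 against replicate 2, with medians of 0.19 and 0.15. Over all 33376 probe sets tested, LM2 was higher in 18639 and 16863, with medians of 0.05 and 0.00. By brightest probe set, LM2 was higher in 8 and 7 of the 10 members. Leaving out SN12C replicate 1, which leaves fewer arrays to clear, raised the number of members lower without overlap from 2 to 6. The number higher became 15. The shares of all probe sets under that setting were not computed, so these counts are not read as a trait of the members. By brightest probe set and without SN12C replicate 1, XBP1 stood at 0.08, DNAJB9 at -0.11 and HSP90B1 at -0.07, with the sign of each turned. HSPA5 stood at -0.09 and DNAJC3 at 0.08. Without SN12C replicate 2 instead, HSPA5 stood at -0.51 and DNAJC3 at 0.53. CALR (0.18 without replicate 1, 0.02 without replicate 2, -0.05 after quantile normalization) and EDEM1 (0.44 and 0.15) also depended on which SN12C array was used. SEL1L stood at 0.60 and 0.59 by its brightest probe set, but its other probe sets tested stood at 0.43 and 0.63 without replicate 1 and at 1.55 and 1.47 without replicate 2. CRELD2 stood at 0.49 both times, and PDIA4 at 0.14 both times, though at -0.02 after quantile normalization.

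LM1, the first metastatic generation, was set against the same SN12C arrays. This comparison rests on 1 LM1 array, whose control probe sets differed between their 3′ and 5′ ends as given above; the part of RNA quality in these values was not tested. The spread in the limma fit comes from the SN12C and LM2 pairs. The SE and p-value of every comparison with LM1 therefore hold no spread between LM1 arrays. HSP90B1 read 9.25 in LM1 against 11.65 and 11.80 in SN12C, a difference of -2.47 ± 0.12 and a 5.55-fold lower signal (limma adjusted p = 0.0786). Its second probe set read 7.43, a difference of -0.99 (limma adjusted p = 0.315). CRELD2 read 11.12, a difference of 0.73 ± 0.09 (limma adjusted p = 0.0841). XBP1 read 8.63, a difference of -1.0 ± 0.27 (limma adjusted p = 0.174). HSPA5 read 13.42 and 9.13 in its probe sets, with differences of -0.39 and 0.10, and EDEM1 read 8.71, with a difference of -0.31. The HSP90B1 difference passed the test after quantile normalization (-2.60, limma adjusted p = 0.0385), where 1156 of 33482 probe sets were called. It also passed when probe sets with tied values were left out (limma adjusted p = 0.0462), where 282 of 27015 were called. Both HSP90B1 probe sets are of the _x_at type, so their values are uncertain as to the gene. Fits without SN12C replicate 1 or 2 take the spread from the LM2 pair alone, so only sizes are given. By brightest probe set HSP90B1 stood at -2.55 without replicate 1 and -2.40 without replicate 2. CALR stood at 0.95 and 0.79, and DNAJC3 at 1.47 and 1.92. In the fit of all 5 arrays limma again called 0 members and 0.0% of all probe sets, while 7757 of 33376 had an unadjusted p below 0.05. LM1 lay above both SN12C arrays for 8 of the 22 members, against 38.7% of all probe sets, and below both for 10, against 27.7%.

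Probe sets of the same gene differed in sign on the LM1 array. DNAJC3 differed from SN12C by 1.70, 0.12, -0.65 and -0.86, with LM1 readings of 10.38, 7.0, 6.34 and 6.60. The first of these had a limma adjusted p of 0.0906, and 0.0387 after quantile normalization. SEL1L differed by 0.42, -0.20 and -1.51, with LM1 readings of 10.01, 8.16 and 6.71. CALR differed by 0.87, 0.24 and -0.79, with LM1 readings of 11.72, 10.68 and 8.64. For DNAJB9 the differences were 0.03, -1.08 and 0.53, and for PDIA4 they were 0.10 and 1.42, the larger with an LM1 reading of 10.80 (limma adjusted p = 0.0786). So the sign for LM1 depends on the probe set for DNAJC3, SEL1L, CALR, DNAJB9 and HSPA5.

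Over the 7 member genes with at least 2 probe sets tested, the range between a gene's probe sets had a median of 1.61 for LM1 against SN12C and 0.30 for LM2 against SN12C. Over all 7195 such genes the medians were 0.70 and 0.27. In LM1 the widest range was that of DNAJC3, 2.56 (0.41 in LM2), and in LM2 that of HSP90B1, 0.52. The position of the oligonucleotides on the transcript was not used here.

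**Figure D4:**
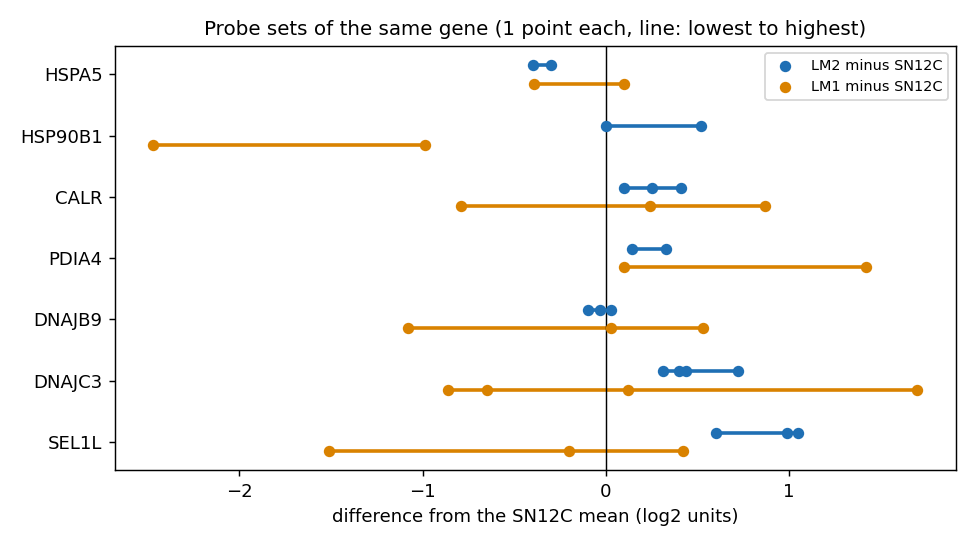
Difference from the SN12C mean in log2 units (x axis) for each probe set tested of the 7 genes with at least 2; points are probe sets, lines join the lowest and highest, blue for LM2 and orange for LM1. The LM1 line is longer than the LM2 line in all 7 genes and crosses 0 in 5 of them.

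LM2 against LM1 sets the generations against each other and shares its LM1 array with the comparison above. The largest differences were those of SEL1L, 2.56 ± 0.41 in the dimmest one tested (limma adjusted p = 0.123), and HSP90B1, 2.48 ± 0.12 (limma adjusted p = 0.106). In its brightest probe set SEL1L differed by only 0.17 ± 0.08 (limma adjusted p = 0.377). XBP1 stood 0.80 higher in LM2 (limma adjusted p = 0.253) and EDEM1 0.60 (limma adjusted p = 0.199), while CRELD2 differed by -0.24 (limma adjusted p = 0.284) and HSPA5 by 0.09 and -0.50. Here too limma called 0 members and 0.0% of all probe sets, and 6974 had an unadjusted p below 0.05. After quantile normalization HSP90B1 passed (2.47, limma adjusted p = 0.0463), where 325 of 33482 probe sets were called. Leaving out an SN12C replicate does not change these differences. It takes the spread from the LM2 pair alone, so calls from those fits are not used here. The brightest probe sets of CALR and DNAJC3 stood at -0.76 and -1.39, and that of CALR read 10.96 on both LM2 arrays. By brightest probe set, the order of the lines was SN12C, LM1, LM2 for SEL1L and SN12C, LM2, LM1 for CRELD2, but LM1 and LM2 were not separated by the test in either gene.

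The rest of the folding and degradation machinery was taken from 6 lists of 97 genes, of which 92 had a probe set of their own and 91 were tested, each by its brightest probe set; 0 of the 91 were called by limma in either direction in LM2 or in LM1. Medians are set against 0.03 for LM2 and 0.09 for LM1 over all 15024 genes tested that way, and against 0.12 and 0.06 over the 10 members. After quantile normalization the medians of the 10 members were -0.03 for LM2 and -0.04 for LM1. Of all 15024 genes, 25.3% were higher in LM2 without overlap and 14.1% lower. For the lists of folding, oxidation, degradation and translocation, the median for LM2 stood above that of all genes, by less after quantile normalization. These medians depended on the SN12C array: against replicate 1 and replicate 2 alone they were 0.24 and 0.06 for folding, 0.41 and 0.14 for oxidation, and 0.29 and 0.06 for translocation, with degradation given below.

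Among 17 further chaperones and folding factors the median was 0.18 (0.10 after quantile normalization), with 9 higher and 3 lower without overlap. SDF2L1, a partner of BiP, read 8.56 and 9.69 in SN12C and 9.98 and 9.95 in LM2, and SERPINH1, the collagen chaperone HSP47, read 10.31 and 11.56 against 11.65 and 11.64. In both, SN12C replicate 1 was the lowest array by far among these 4. Among 12 disulfide isomerases and oxidases the median was 0.29 (0.14), 8 being higher and 1 lower without overlap. ERP44, which retains client proteins in the early secretory pathway, differed by 0.58 ± 0.22 (limma adjusted p = 0.582), and TMX4, a membrane-bound member of the family, by 0.55 ± 0.14 (limma adjusted p = 0.442).

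Among 26 ERAD genes the median was 0.19 (0.05), 7 being higher and 2 lower without overlap. EDEM2, a paralogue of EDEM1, read 9.14 and 9.44 in SN12C and 10.05 and 9.98 in LM2, a difference of 0.72 ± 0.14 (limma adjusted p = 0.392). UBE2J2, an ER-bound ubiquitin-conjugating enzyme, read 11.07 and 11.25 in SN12C and 10.36 and 10.40 in LM2, a difference of -0.78 ± 0.10 (limma adjusted p = 0.334). They differed in sign, and neither overlapped between the lines. Against SN12C replicate 2 alone the ERAD median was 0.00, and against replicate 1 it was 0.39.

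Among 15 translocation genes the median was 0.14 (0.07), and 10 were higher and 1 lower without overlap. SEC61A1, the pore of the translocon, differed by 0.53 ± 0.22 (limma adjusted p = 0.603), and SRPRB, a subunit of the signal recognition particle receptor, by 0.64 ± 0.30 (limma adjusted p = 0.647). Among 12 sensors and regulators the median was 0.31 (0.22), with 4 higher and 0 lower without overlap. CREB3L1, an ER-bound transcription factor, differed by 0.63 ± 0.16 (limma adjusted p = 0.452), and CREB3, its relative, by 0.47 ± 0.36 (limma adjusted p = 0.679). Against SN12C replicate 2 alone the median of this list was 0.02, and against replicate 1 it was 0.54.

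The PERK-ATF4 branch, which slows translation and induces amino acid and death genes, had the opposite sign in the deposited values, though no gene passed the test. All 9 genes of that list were lower in the LM2 mean, with a median of -1.10 (-1.24), and 5 were lower without overlap. ATF3 read 9.03 and 8.86 in SN12C and 6.99 and 7.47 in LM2 (difference -1.71 ± 0.21, limma adjusted p = 0.334), and DDIT3, the death-associated factor CHOP, read 11.88 and 10.32 against 9.40 and 9.77. The size depended on 1 array: against SN12C replicate 1 the median was -1.80 with 9 of 9 lower, and against replicate 2 it was -0.15 with 6 of 9 lower.

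In LM1 the medians of the 6 lists, in the order above, were 0.38, 0.39, 0.19, 0.29, 0.11 and -0.65. After quantile normalization they were 0.45, 0.30, 0.10, 0.19, -0.04 and -0.78. They rest on the 1 LM1 array, whose control probe sets differed between their 3′ and 5′ ends. The LM1 and LM2 comparisons share the SN12C arrays, so these values are not independent of those for LM2.

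**Figure D5:**
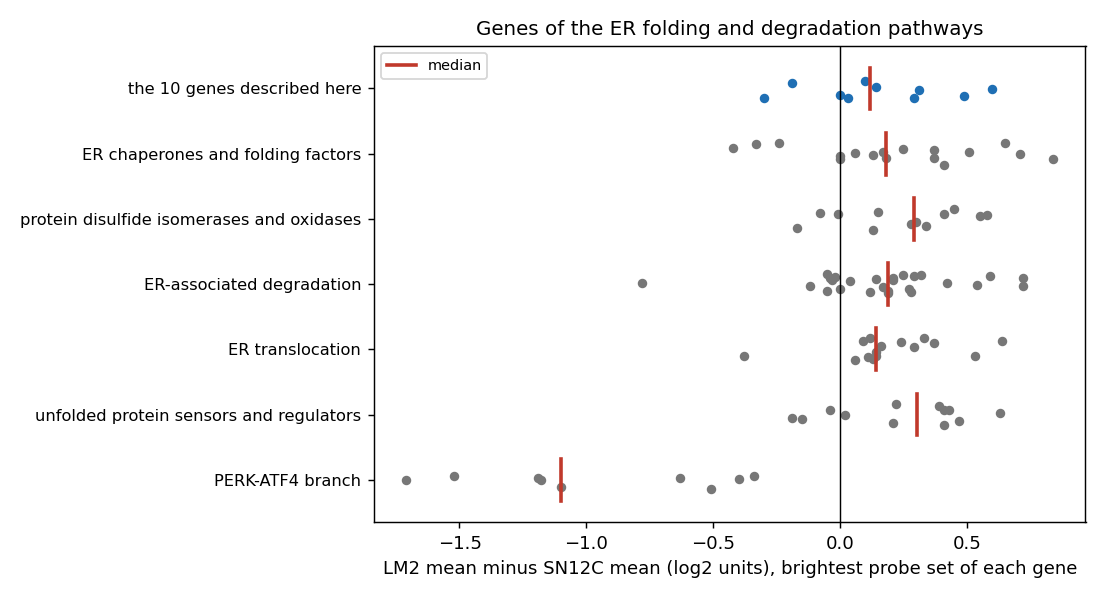
Difference between the LM2 mean and the SN12C mean in log2 units (x axis) for the brightest probe set of each gene, for the 10 genes described here (blue) and the tested genes of 6 pathway lists (grey); red bars are medians. The PERK-ATF4 list lies wholly below 0 with a median of -1.10, and the medians of the other 5 lists lie between 0.14 and 0.31.

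The genes whose pattern over the 5 arrays was most like that of HSPA5 were sought among the brightest probe sets of 15023 other genes, by the root mean square difference after each was centred on its own mean. The nearest were LOC101928728 at 0.0181 log2 units, RAB4B at 0.0186 and MAPT at 0.0288, against a median of 0.321 over all genes compared. None of the 3 belongs to the lists above. The members lay further off, between 0.262 for PDIA4, which ranked 5785, and 0.922 for HSP90B1, which ranked 14829. XBP1 stood at 0.271 and EDEM1 at 0.282.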

How the data were processed

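The deposited table holds log2 signals of 5 Affymetrix arrays; per the submitters' processing notes, the authors used RMA and Partek, whose versions and settings are not given in the sources used here. RMA compresses the differences of dim probe sets. The 62 control probe sets were left out, and 33376 of the others had at least 2 arrays at the 40th percentile (6.03). These were fitted in limma 3.58.1 (R 4.3.3) with 1 mean per line over all 5 arrays, 2 residual degrees of freedom and Benjamini-Hochberg adjustment at 0.05. The script was tested on simulated data. The platform table named 1 gene for 41097 probe sets, several for 1801, and did not list 11777. Every member probe set naming 1 gene is reported; other pathway genes are read by their brightest probe set, and those named are the 2 with the largest absolute difference of each list in LM2 among those tested, plus the 3 genes most like HSPA5. Promoter sequences are RefSeq's (GRCh38.p14). The labels state no pairing of replicates across SN12C and LM2. Replicate 1 minus replicate 2 was little correlated between the lines (r = 0.067 over probe sets). With LM2 replicates nearly equal, this cannot show whether the numbers pair samples. The members and lists were chosen with earlier results of these data known. Alternatives covered the filter, 1 probe set per gene, quantile and median scaling, limma's trend and robust options, tied values, the replicate block and each array left out; the non-overlap counts under other settings were added after seeing the data. Signal is an arbitrary scale, and the number of arrays limits its precision.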

Additional observations from a re-analysis of the deposited data

Results flagged for a closer look

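For 5 of the 22 member probe sets (22.7%), LM1 lay below both SN12C arrays while both LM2 arrays lay above them, against 1587 of all 33376 probe sets (4.75%). After quantile normalization the CALR and EDEM1 probe sets no longer did so, which left 3 of 22 (13.6%), the DNAJC3 and SEL1L probe sets, against 4.99% of all. The LM2 minus LM1 differences were 1.19 log2 units for CALR (its dimmest probe set; limma adjusted p = 0.153), 1.26 and 1.37 for DNAJC3 (limma adjusted p = 0.160 and 0.264), 2.56 for SEL1L (the dimmest one tested; limma adjusted p = 0.123) and 0.60 for EDEM1 (limma adjusted p = 0.199). None passed the test of that difference. The CALR, DNAJC3 and SEL1L probe sets are not the brightest of their genes; by the brightest, LM1 lay above both SN12C arrays for these 3 genes. The LM1 array is also the one whose actin 3′ probe sets exceeded the 5′ ones by 3.43, and its part in these values was not tested.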

How the results depend on the processing

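The limma calls were 0 under the reported settings in each comparison. Quantile normalization gave 1156 calls for LM1 against SN12C and 325 for LM2 against LM1, and leaving out tied values gave 282 and 13. Leaving out 1 array gave 0 to 8105 calls for LM2 against SN12C, 0 to 10386 for LM1 against SN12C and 0 to 5776 for LM2 against LM1. With the replicate number as a replicate block, 0 were called for LM2 against SN12C with 1 residual degree of freedom. The labels do not say that the numbers pair the samples. Over all 24 member probe sets the median difference for LM2 was 0.27, 0.12 after quantile normalization and 0.15 to 0.27 without 1 array; for LM1 it was -0.05, and -0.13 to -0.035 without 1 array. By brightest probe set, 6 of the 10 members were higher without overlap, against 25.3% of all genes, and 1 was lower, against 14.1%. Quantile normalization moved the median of these 10 for LM2 from 0.12 to -0.03, with 4 higher and 6 lower. After quantile normalization, 8 of the 22 member probe sets were higher, against 24.1% of all probe sets, and 4 were lower, against 23.4%. Without 1 array, 2 to 6 member probe sets were lower, and the share of all probe sets was not computed. By brightest probe set, quantile normalization reversed HSP90B1 (-0.12), CALR (-0.049), PDIA4 (-0.016) and DNAJB9 (-0.089) for LM2, and PDIA4 (-0.027) and DNAJB9 (-0.061) for LM1. Leaving out 1 array reversed HSP90B1 (-0.071 to 0.081), DNAJB9 (-0.11 to 0.17, in LM2 and in LM1) and XBP1 (-0.46 to 0.077). Taking the mean of a gene's probe sets reversed DNAJB9 in LM2 (-0.034), SEL1L (-0.43) and DNAJB9 (-0.17) in LM1, and, for LM2 against LM1, HSPA5 (-0.21), CALR (0.15), PDIA4 (-0.52), DNAJB9 (0.14) and DNAJC3 (0.39). Over the 30 member results and 374 alternatives, 330 kept direction and side of the threshold, 19 reversed and 25 newly passed it, 21 of these without an SN12C replicate.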
